A study of Arabidopsis thaliana with 28 samples.

Results

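The response of the etiolated hypocotyl to 3 h of light was described from 4 poly(A) RNA-seq libraries of Arabidopsis thaliana Col-0. They comprised 2 libraries (replicates A and B) of hypocotyls after 3 h of light and 2 of hypocotyls kept in darkness, chosen by their column labels from the 28 libraries of the series. All seedlings shared 1 wild-type genotype, a brief exposure to white light to induce germination, and growth in darkness for 3 days. The light group was then moved for 3 h to simulated white light made by LEDs of blue, red and weak far-red light at 100 µmol m−2 s−1, and the dark group stayed in darkness until collection. Roots were removed, and the hypocotyl, the embryonic stem below the cotyledons, was cut out under a stereomicroscope from seedlings kept in cold acetone. Hypocotyls after 1 h and 6 h of light, and cotyledons with the shoot apex after 3 h of light and in darkness, were used to place the 3 h values in time and against the other tissue, with 2 libraries in each of these groups too.

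In darkness the hypocotyl elongates quickly under the control of PIF transcription factors, gibberellin, brassinosteroid and auxin, and the plastids stay undeveloped. Light activates phytochromes, cryptochromes and phototropins. Phytochromes remove the PIF proteins, and phytochromes and cryptochromes relieve the bZIP factor HY5 from degradation by the COP1–SPA ubiquitin ligase. Elongation then stops, the upper hypocotyl greens, and flavonoid screens are made. No libraries of dark hypocotyls were matched in age or time of day to the 3 h libraries, so that light, age and time of day cannot be told apart. In bulk tissue, fewer cells of a type and less RNA per cell cannot be told apart either.

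The values are FPKM, fragments scaled to transcript length and library size, as the authors deposited them. Differences are given on the scale of log2(FPKM + 1), light minus darkness unless stated otherwise, on which changes of weakly expressed genes appear smaller than they are. A gene was called when its Benjamini-Hochberg adjusted p in limma was under 0.05 and its log2 change at least 1 in size. The 2 libraries of 3 h hypocotyls had a Pearson correlation across genes of 0.981, and the 2 of dark hypocotyls 0.979, and in each case no library of another group came closer (at most 0.952 and 0.972). The steps between low FPKM values put the relative depth at 1.45 and 1.37 in the 3 h libraries, against 1.04 and 0.775 in the dark libraries. At mean depth, 1 FPKM of a transcript of 1500 nt came to about 17.3 reads.

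After 3 h of light, all 20 light-harvesting genes listed, all 23 Calvin cycle and photorespiration genes tested and 8 of 13 flavonoid enzyme genes were higher. All 17 SAUR genes listed, 13 of 16 shade and PIF target genes and 13 of 18 starvation genes tested were lower. Of 18678 genes tested, 3955 were called (21.2%). Of these, 2307 rose (12.4% of those tested) and 1648 fell (8.82%). The median change of all genes was 0.04. A change of 3 or more in size was called in 392 genes that rose and 249 that fell, and a change of 6 or more in 36 and 6. Of all genes tested, 41.8% had both light libraries above both dark libraries and 36.4% had both below them, so that separation of the libraries alone marks no gene. Where a group was listed at 0 FPKM, the log2 difference depends on the added 1 FPKM and gives no fold.

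**Figure D1:**
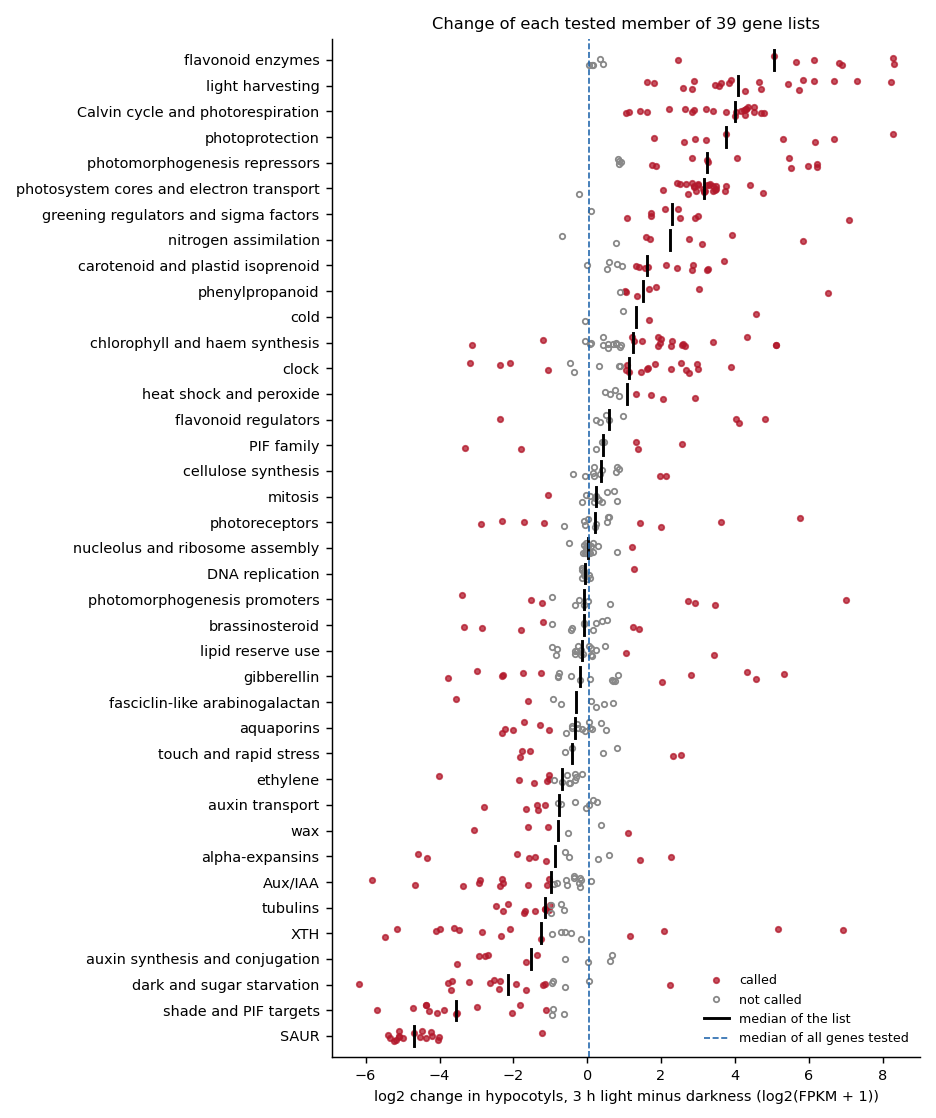
Each row is a gene list, each point the log2 change of a tested member in hypocotyls (3 h light minus darkness), filled where limma called it; black bars are list medians and the dashed line the median of all genes tested, 0.04. Flavonoid enzymes, light harvesting and the Calvin cycle stand at the top, with medians of 5.05, 4.08 and 4.01, and SAUR genes and shade and PIF targets at the bottom, with −4.68 and −3.54.

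The 14 largest increases among nuclear genes that code for protein, have exons of 500 nt or more and show no overlap between light and dark libraries included enzymes of flavonoid synthesis, light-harvesting and light-stress proteins and a plastid sigma factor. ELIP1 (AT3G22840, chr3:8084405-8085669), an early light-induced protein that binds chlorophyll in greening plastids, had 1080 and 1100 FPKM in 3 h hypocotyls, against 2.14 and 2.87 FPKM in dark hypocotyls (log2 change 8.29, SE 0.39, adjusted p = 2.57e-11). CHS (AT5G13930, chr5:4488476-4490264), chalcone synthase, which makes the first committed intermediate of the flavonoid pathway, had 321 and 338 FPKM in 3 h hypocotyls, against 0 and 0.127 FPKM in dark hypocotyls (log2 change 8.28, SE 0.52, adjusted p = 1.64e-09). F3H, flavanone 3-hydroxylase, had 390 and 420 FPKM in 3 h hypocotyls, against 0.263 and 0.312 FPKM in dark hypocotyls (log2 change 8.30, SE 0.35, adjusted p = 3.27e-12). Dark levels of all 3 were below 3 FPKM. MSRB6, a methionine sulfoxide reductase of the group that repairs oxidised protein, had 1110 and 1120 FPKM in 3 h hypocotyls, against 5.09 and 5.44 FPKM in dark hypocotyls (log2 change 7.48, SE 0.23, adjusted p = 3.7e-15). SIG5, a sigma factor that directs the plastid-encoded RNA polymerase to the promoter of a photosystem II core gene, had 177 and 175 FPKM in 3 h hypocotyls, against 0.285 and 0.335 FPKM in dark hypocotyls (log2 change 7.08, SE 0.13, adjusted p = 3.81e-19). The other members of this group were AT1G48100 (annotated as pectin lyase-like, 7.72), KIN2 (7.65), AT3G57020 (annotated as a phosphotriesterase family protein, 7.5), SOUL-1 (a haem-binding family protein, 7.29), AT3G56290 (7.10), HYH (7.0), LHCB1.1 (7.30), LHCB1.5 (8.22) and DIR1 (8.30). Overlap with other genes limits some of these values, since the sources do not say whether reads were counted by strand. An annotated gene on the other strand covers 100% of the exons of DIR1, 100% of those of LHCB1.5 and 93.8% of those of F3H. For AT1G48100 and SOUL-1 the covered share is 37.7% and 30.0%.

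The 14 largest decreases under the same rule held growth genes and a marker of starvation. RTFL13 (AT3G23635, chr3:8497679-8498390), of the ROTUNDIFOLIA-like family of small peptides, was listed at 0 in both 3 h libraries, against 615 and 826 FPKM in dark hypocotyls (log2 change -9.48, SE 1.1, adjusted p = 4.14e-06). Its mean in hypocotyls was 212 ± 53.4 FPKM at 15 min, 87.4 ± 28.4 FPKM at 30 min and 21.4 ± 7.03 FPKM at 1 h (SD, n = 2 each). A listed 0 can be a failed estimate, and the exons of RTFL13 span only 712 nt. RTFL21 of the same family had 0.198 and 0.104 FPKM in 3 h hypocotyls, against 150 and 169 FPKM in dark hypocotyls (log2 change -7.12, SE 0.27, adjusted p = 1.14e-14). DIN6, an asparagine synthetase that marks dark and sugar-starved tissue, had 1.55 and 1.15 FPKM in 3 h hypocotyls, against 171 and 166 FPKM in dark hypocotyls (log2 change -6.18, SE 0.34, adjusted p = 1.27e-10). MIOX2, a myo-inositol oxygenase, had 4.66 and 4.01 FPKM in 3 h hypocotyls, against 292 and 246 FPKM in dark hypocotyls (log2 change -5.66, SE 0.29, adjusted p = 2.11e-11). Each of these 4 genes had at least 150 FPKM in both dark libraries. The remaining genes were AT4G13790 (SAUR-like, -6.32), IAA6 (-5.84), P1R3 (-5.80), PAR1 (-5.68), AT4G25260 (annotated as a pectin methylesterase inhibitor, -5.61), XTH19 (-5.48), SAUR64 (-5.39), AT5G39240 (-5.36), SAUR68 (-5.34) and AT3G25011 (-6.16), an uncharacterised gene listed at 0 in both 3 h libraries, against 38.3 and 128 FPKM in dark hypocotyls. The call of AT3G25011 rests on dark replicate B: without that library its change was −5.30 with an adjusted p of 0.061 in limma.

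**Figure D2:**
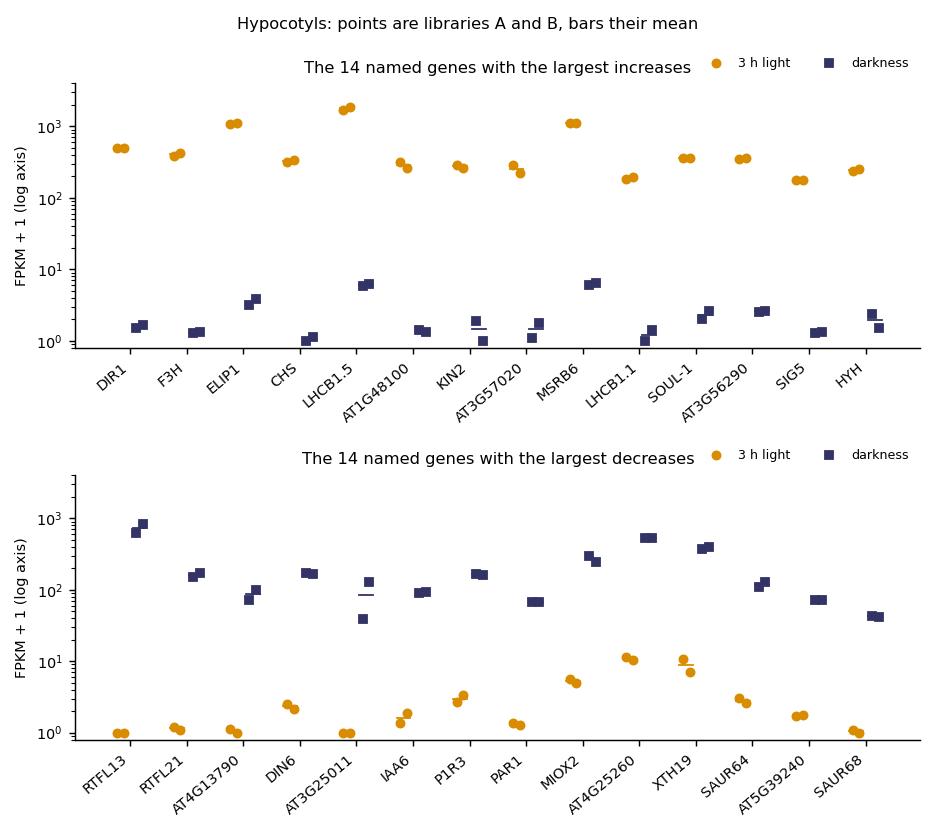
FPKM + 1 on a log axis for the 14 named genes with the largest increases (top) and decreases (bottom) in hypocotyls; points are libraries A and B after 3 h of light (orange, left) and in darkness (blue, right), bars their means. As the rule for naming them requires, light and dark libraries do not overlap in any gene, and ELIP1 has 1080 and 1100 FPKM in 3 h hypocotyls, against 2.14 and 2.87 FPKM in dark hypocotyls, while DIN6 has 1.55 and 1.15 FPKM in 3 h hypocotyls, against 171 and 166 FPKM in dark hypocotyls.

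Genes that promote photomorphogenesis were mixed in direction, and most of those that repress it rose. HY5 had 249 and 253 FPKM in 3 h hypocotyls, against 21.9 and 21.9 FPKM in dark hypocotyls, which is 11.5 times as much (log2 change 3.46, SE 0.11, adjusted p = 6.04e-16). HYH, its homologue, had 234 and 251 FPKM in 3 h hypocotyls, against 1.37 and 0.526 FPKM in dark hypocotyls (log2 change 7.0, SE 0.26, adjusted p = 6.48e-14). BBX22, a B-box protein that acts with HY5, had 130 and 151 FPKM in 3 h hypocotyls, against 19.6 and 21.3 FPKM in dark hypocotyls (log2 change 2.72, SE 0.12, adjusted p = 5.15e-14). Among the 13 tested promoters of photomorphogenesis 4 rose and 3 fell, with a median of −0.10. Of all genes tested, 12.4% rose and 8.82% fell. The 3 that fell were FHL (-3.40) and FHY1 (-1.51), which carry phytochrome A into the nucleus, and BBX21 (-1.23).

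Of 15 repressors of photomorphogenesis 11 rose and none fell, with a median of 3.24 (rises were called in 12.4% of all genes). BBX30, a microprotein of the B-box family, was listed at 0 in both dark libraries and had 69.6 and 79 FPKM in 3 h hypocotyls (log2 change 6.23, SE 0.34, adjusted p = 4.93e-11). BBX24, which binds HY5 and lowers its activity, had 684 and 662 FPKM in 3 h hypocotyls, against 43.5 and 36.4 FPKM in dark hypocotyls (log2 change 4.05, SE 0.11, adjusted p = 5.54e-17). RUP2, which returns the UV-B receptor UVR8 to its inactive form, had 123 and 143 FPKM in 3 h hypocotyls, against 1.88 and 2.18 FPKM in dark hypocotyls (log2 change 5.46, SE 0.20, adjusted p = 7.83e-15). Light libraries were above dark libraries in all 3, as in 41.8% of all genes, and BBX24 was the most abundant of the 3 in both states. COP1, the ubiquitin ligase itself, had 43.6 and 41.3 FPKM in 3 h hypocotyls, against 12.7 and 11.2 FPKM in dark hypocotyls (log2 change 1.75, SE 0.11, adjusted p = 1.77e-11). Its partners SPA1 (3.26), SPA3 (2.84) and SPA4 (1.86) rose, and SPA2 (0.86) did not reach a change of 1. BBX25 (6.22), BBX31 (5.53), BBX32 (5.98) and RUP1 (3.24) rose as well, whereas BBX28 (0.83), BBX29 (0.87) and DET1 (0.92) were not called.

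Photoreceptor genes did not move together: of 17 genes for photoreceptors and their close partners 4 rose and 4 fell. Over all genes, 12.4% rose and 8.82% fell. PHYA, the light-labile phytochrome of dark-grown tissue, had 66.2 and 66.8 FPKM in 3 h hypocotyls, against 346 and 319 FPKM in dark hypocotyls (log2 change -2.30, SE 0.12, adjusted p = 1.94e-12). The 2 phototropins went in opposite directions. PHOT1 had 94.1 and 79 FPKM in 3 h hypocotyls, against 324 and 251 FPKM in dark hypocotyls (log2 change -1.71, SE 0.18, adjusted p = 5.3e-08). PHOT2, the phototropin of strong light, had 151 and 147 FPKM in 3 h hypocotyls, against 10.7 and 11.5 FPKM in dark hypocotyls (log2 change 3.63, SE 0.15, adjusted p = 3.35e-14). Antisense overlap covers 38.8% of the exons of PHOT2. RPT2, which acts with the phototropins in bending, had 1080 and 1020 FPKM in 3 h hypocotyls, against 15.5 and 21.7 FPKM in dark hypocotyls (log2 change 5.76, SE 0.14, adjusted p = 6.95e-18), and its partner NPH3 fell (-1.17). The phytochrome substrates PKS1 (2.00) and PKS4 (-2.87) also differed in direction, and ZTL, a blue-light receptor of the clock, rose (1.43). PHYB (0.57), CRY1 (-0.64) and CRY2 (-0.07) were not called.

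PIF genes moved in both directions. PIF1 (0.40), PIF3 (0.23) and PIF4 (0.46) were not called, while PIF5 (1.32), PIF7 (2.57) and PIF8 (1.38) rose and PIF6 (-1.78) fell, the last with 88.9% of its exons covered by a gene on the other strand. PIL1, a close relative and quick marker of shade, fell to 6.6 and 6.61 FPKM in 3 h hypocotyls, against 70.4 and 80.1 FPKM in dark hypocotyls (log2 change -3.32, SE 0.14, adjusted p = 5.58e-14). Of 16 shade and PIF target genes 13 fell and none rose, with a median of −3.54, against falls in 8.82% of all genes. ATHB2, the homeodomain factor by which shade responses are often followed, had 5.5 and 6.23 FPKM in 3 h hypocotyls, against 127 and 140 FPKM in dark hypocotyls (log2 change -4.29, SE 0.15, adjusted p = 2.58e-15). PAR1, an atypical helix-loop-helix protein, had 0.346 and 0.292 FPKM in 3 h hypocotyls, against 66.7 and 66.1 FPKM in dark hypocotyls (log2 change -5.68, SE 0.19, adjusted p = 1.05e-15). PRE5, of the family that promotes cell elongation, had 0.897 and 0.43 FPKM in 3 h hypocotyls, against 40.4 and 43.8 FPKM in dark hypocotyls (log2 change -4.71, SE 0.25, adjusted p = 1.3e-12). Light libraries were below dark libraries in all of these, as in 36.4% of all genes. The 3 members not called were BIM1 (-0.62), BEE3 (-0.94) and CKX5 (-0.92).

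Clock genes were mostly higher, in 14 of 23, and 4 were lower, against 12.4% and 8.82% of all genes. LNK1, a coactivator of the morning clock factors, had 69.8 and 73.4 FPKM in 3 h hypocotyls, against 4.78 and 3.07 FPKM in dark hypocotyls (log2 change 3.90, SE 0.17, adjusted p = 6.62e-14). The morning factors CCA1 and LHY had passed their highest measured level: CCA1 averaged 112 ± 8.25 FPKM at 1 h and 35.5 ± 2.93 FPKM at 3 h (SD, n = 2 each), and its log2 difference of 3 h minus 1 h was -1.63 (SE 0.20, adjusted p = 1.11e-06 in limma). Against darkness CCA1 was still higher at 3 h (2.76), as was LHY (1.83). ELF4, of the evening complex, had 99.5 and 127 FPKM in 3 h hypocotyls, against 15.2 and 12 FPKM in dark hypocotyls (log2 change 2.97, SE 0.17, adjusted p = 6.6e-12). Another evening component, BOA, whose exons overlap a gene on the other strand over 45.9% of their length, had 5.18 and 5.83 FPKM in 3 h hypocotyls, against 55.9 and 59.2 FPKM in dark hypocotyls (log2 change -3.17, SE 0.16, adjusted p = 5.05e-13). The others that fell were LUX (-1.07), COR27 (-2.35) and AT4G33980 (-2.10), and TOC1 (-0.36) and ELF3 (0.33) were not called. None of the 23 was higher at 3 h than at 1 h and 10 were lower, against 7.23% and 4.31% of all genes.

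Photosynthesis genes rose almost without exception. All 20 light-harvesting genes, all 9 genes of photoprotection, 27 of 28 nuclear genes for photosystem cores and electron transport and all 23 tested genes of the Calvin cycle and photorespiration were called higher, with medians of 4.08, 3.76, 3.16 and 4.01. The background for a rise was 12.4% of genes. LHCB1.1, an antenna protein of photosystem II, had 181 and 193 FPKM in 3 h hypocotyls, against 0 and 0.419 FPKM in dark hypocotyls (log2 change 7.30, SE 0.24, adjusted p = 7.52e-15). LHCA1, an antenna protein of photosystem I, had 527 and 517 FPKM in 3 h hypocotyls, against 8.12 and 9.54 FPKM in dark hypocotyls (log2 change 5.74, SE 0.13, adjusted p = 3.29e-18). PSBS, which switches the photosystem II antenna to heat dissipation, had 1180 and 1120 FPKM in 3 h hypocotyls, against 9.51 and 10.8 FPKM in dark hypocotyls (log2 change 6.69, SE 0.13, adjusted p = 5.87e-19). The dark libraries of these 3 genes reached at most 10.8 FPKM and the light libraries at least 181 FPKM. The range within the light-harvesting list was wide, 1.63 in LHCB4.3 to 8.22 in LHCB1.5. LHCB1 and LHCB2 genes share stretches of sequence (20.5% of the 50-nt stretches of LHCB1.1 also occur in another gene), and their split among copies is uncertain.

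Photosystem core genes started from higher dark levels. PSBR, a photosystem II subunit near the water-splitting complex, had 831 and 821 FPKM in 3 h hypocotyls, against 24.8 and 35 FPKM in dark hypocotyls (log2 change 4.76, SE 0.13, adjusted p = 8.88e-17). PSAD-1, the ferredoxin-docking subunit of photosystem I, had 426 and 441 FPKM in 3 h hypocotyls, against 59.7 and 55.8 FPKM in dark hypocotyls (log2 change 2.89, SE 0.12, adjusted p = 4.47e-14). The exception was PETE1, the minor plastocyanin, which had 31.3 and 33.9 FPKM in 3 h hypocotyls and 35.4 and 40.7 FPKM in dark hypocotyls (log2 change -0.21), while PETE2, the major plastocyanin, rose to 408 and 391 FPKM in 3 h hypocotyls, against 44.6 and 42.7 FPKM in dark hypocotyls. In the Calvin cycle RBCS1A, a Rubisco small subunit, had 1280 and 1400 FPKM in 3 h hypocotyls, against 136 and 147 FPKM in dark hypocotyls (log2 change 3.23, SE 0.15, adjusted p = 2.58e-13). HPR1, the peroxisomal hydroxypyruvate reductase of photorespiration, had 109 and 107 FPKM in 3 h hypocotyls, against 2.5 and 3.93 FPKM in dark hypocotyls (log2 change 4.72, SE 0.16, adjusted p = 1.05e-15). Transketolase TKL1 (1.14) and RPI3 (1.05), a ribose-5-phosphate isomerase, were just past the threshold.

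Genes of chlorophyll synthesis rose at some steps and not at others. Of 30 genes 16 rose and 2 fell, with a median of 1.24, against rises in 12.4% and falls in 8.82% of all genes. HEMA1, glutamyl-tRNA reductase, at which tetrapyrrole synthesis is regulated, had 84.1 and 82.5 FPKM in 3 h hypocotyls, against 16.8 and 15.9 FPKM in dark hypocotyls (log2 change 2.28, SE 0.14, adjusted p = 1.54e-11). CHLH, the large subunit of magnesium chelatase at the branch to chlorophyll, had 275 and 268 FPKM in 3 h hypocotyls, against 6.98 and 6.97 FPKM in dark hypocotyls (log2 change 5.10, SE 0.16, adjusted p = 6.9e-16). GUN4, which stimulates that enzyme and overlaps a gene on the other strand over 73% of its exons, had 122 and 143 FPKM in 3 h hypocotyls, against 2.69 and 2.99 FPKM in dark hypocotyls (log2 change 5.12, SE 0.12, adjusted p = 9.04e-18). The steps between, from GSA1 (0.07) and HEMB1 (0.42) to HEMF1 (0.43) and HEMG1 (0.71), were mostly not called, although GSA2 (1.49) and HEME1 (1.28) rose. CRD1, of the cyclase that closes the isocyclic ring, rose (4.34), as did CAO, which makes chlorophyll b (3.40). The 3 protochlorophyllide reductases differed. PORA, the form of etiolated tissue, had 0.529 and 0.149 FPKM in 3 h hypocotyls, against 9.02 and 12.1 FPKM in dark hypocotyls (log2 change -3.11, SE 0.20, adjusted p = 7.62e-11). PORB fell (-1.2) and PORC, the form of green tissue, rose (2.64). Haem and bilin branches were uneven, with FC1 (1.21) and FC2 (1.93) higher and HY1 (-0.05) and HY2 (0.56) not called.

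Regulators of plastid development followed the same direction, with 9 of 10 greening regulators and sigma factors higher, against 12.4% of all genes. GLK2, a Golden2-like factor that activates photosynthesis genes, had 106 and 106 FPKM in 3 h hypocotyls, against 18.3 and 18.5 FPKM in dark hypocotyls (log2 change 2.46, SE 0.13, adjusted p = 1.69e-12). GLK1, its paralogue, had 4.82 and 6.44 FPKM in 3 h hypocotyls, against 2.18 and 2.01 FPKM in dark hypocotyls (log2 change 1.09, SE 0.21, adjusted p = 0.000156). All 6 sigma factors rose, with SIG5 (7.08) far above SIG1 (3.00), SIG6 (2.91), SIG4 (2.12), SIG3 (1.74) and SIG2 (1.73). Of the GATA factors that promote greening, GNC rose (2.50) and GNL had 0.159 and 0.0836 FPKM in 3 h hypocotyls and 0 and 0.074 FPKM in dark hypocotyls. In cotyledons with apex GNL had 227 and 197 FPKM after 3 h of light. Carry-over of tissue between the dissected parts was not tested. Carotenoid and plastid isoprenoid genes rose in 11 of 16 cases and none fell. PSY, phytoene synthase, which commits isoprenoids to carotenoids, had 92.8 and 92.8 FPKM in 3 h hypocotyls, against 7.93 and 9.47 FPKM in dark hypocotyls (log2 change 3.28, SE 0.18, adjusted p = 4.45e-12). BCH1 (3.71), CYP97A3 (3.24), LCYE (2.86) and ZEP (2.85), which make the xanthophylls, were among the other rises, and ZISO (0.93), CRTISO (0.60) and LCYB (0.82) were not called.

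At 3 h most genes of the flavonoid pathway as far as flavonols had risen, while the anthocyanin genes DFR, LDOX, UF3GT and 5MAT were below 1 FPKM. Of 13 enzyme genes 8 rose and none fell, with a median of 5.05, against rises in 12.4% of all genes. FLS1, flavonol synthase, had 120 and 121 FPKM in 3 h hypocotyls, against 0.0541 and 0 FPKM in dark hypocotyls (log2 change 6.89, SE 0.35, adjusted p = 3.72e-11). UGT78D1 (5.05) and UGT78D2 (6.14), which attach sugars to flavonols, CHI (5.66), chalcone isomerase, and CHIL (6.81), its non-catalytic relative, rose too. F3'H, flavonoid 3'-hydroxylase, which adds a hydroxyl group to the B ring of flavonols and anthocyanins, was the enzyme gene of the flavonol route that had not risen, with 10.4 and 10.6 FPKM in 3 h hypocotyls and 9 and 10.2 FPKM in dark hypocotyls (log2 change 0.12, adjusted p = 0.566 in limma). DFR, dihydroflavonol reductase, the entry to anthocyanins, had 0.0378 and 0.0399 FPKM in 3 h hypocotyls and was listed at 0 in both dark libraries (log2 change 0.05, adjusted p = 0.811 in limma). LDOX, leucoanthocyanidin dioxygenase, had 0.0836 and 0.132 FPKM in 3 h hypocotyls and was also listed at 0 in darkness (0.15). UF3GT (0.42) and 5MAT (0.35), which decorate anthocyanins, were not called either. With 0.1 FPKM added to each value before the logarithm instead of 1 FPKM, LDOX, 5MAT and UF3GT passed the threshold (1.05, 1.44 and 2.12) at levels below 1 FPKM. GSTF12, needed to bring anthocyanins into the vacuole, was at 4.72 and 4.74 FPKM in 3 h hypocotyls, against 0.106 and 0 FPKM in dark hypocotyls (log2 change 2.45, SE 0.28, adjusted p = 3.67e-07).

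The anthocyanin genes had risen by 6 h. LDOX had 59.4 and 53.4 FPKM in 6 h hypocotyls, against 0.0836 and 0.132 FPKM in 3 h hypocotyls (log2 difference 5.69, SE 0.13, adjusted p = 3.65e-17 in limma). DFR had 46.3 and 37.6 FPKM in 6 h hypocotyls, against 0.0378 and 0.0399 FPKM in 3 h hypocotyls (5.36, adjusted p = 6.17e-15 in limma). 5MAT (4.62), UF3GT (4.51) and GSTF12 (4.48) complete the 5 largest increases of 6 h against 3 h under the naming rule, all of them anthocyanin genes. F3'H was the other flavonoid enzyme gene higher at 6 h, with 31.7 and 28 FPKM in 6 h hypocotyls, against 10.4 and 10.6 FPKM in 3 h hypocotyls (1.42, adjusted p = 1.07e-06 in limma). Over the same interval 5 flavonoid enzyme genes fell, FLS1 (-1.05), CHI (-1.0), CHIL (-1.22), UGT78D1 (-1.03) and UGT78D2 (-1.10), and CHS had 255 and 245 FPKM in 6 h hypocotyls, against 321 and 338 FPKM in 3 h hypocotyls (-0.40, adjusted p = 0.615 in limma, not called). Among 9 regulators of the pathway 3 rose by 3 h and 1 fell, beside rises in 12.4% and falls in 8.82% of all genes. MYB12, of the flavonol branch, had 14.3 and 17.5 FPKM in 3 h hypocotyls, against 0 and 0.0652 FPKM in dark hypocotyls (log2 change 4.03, SE 0.19, adjusted p = 2.54e-13). PAP1, of the anthocyanin branch, had 26.5 and 27.7 FPKM in 3 h hypocotyls and was listed at 0 in both dark libraries (log2 change 4.81, SE 0.33, adjusted p = 3.07e-10). TT8, the bHLH partner that PAP1 works with, had 0.83 and 1.19 FPKM in 3 h hypocotyls, against 0 and 0.05 FPKM in dark hypocotyls, and 11.5 and 11.3 FPKM in 6 h hypocotyls (2.63 for 6 h minus 3 h, adjusted p = 7.8e-10 in limma). MYBL2, a repressor of anthocyanin genes, was low at 3 h, with 9.2 and 10.2 FPKM in 3 h hypocotyls, against 61.2 and 47.1 FPKM in dark hypocotyls (log2 change -2.35, SE 0.25, adjusted p = 1.29e-07), and was higher again at 6 h (2.05).

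**Figure D3:**
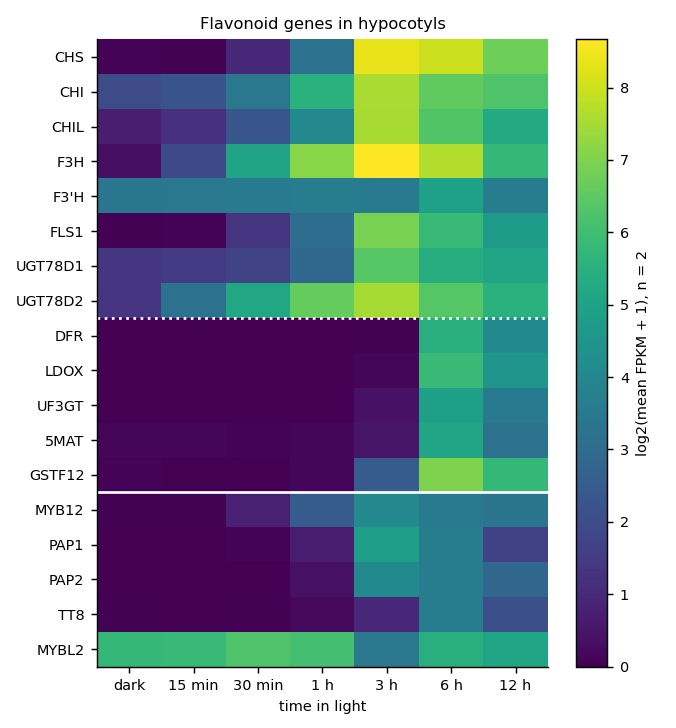
Mean log2(FPKM + 1) of flavonoid genes in hypocotyls (n = 2 libraries) from darkness to 12 h of light; the dotted line divides general and flavonol enzymes (above) from anthocyanin genes (below), and the regulators stand below the solid line. CHS and F3H are brightest at 3 h, while DFR and LDOX, at 0.0388 ± 0.00146 and 0.108 ± 0.0344 FPKM there, appear at 6 h with 41.9 ± 6.15 and 56.4 ± 4.28 FPKM.

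The phenylpropanoid genes upstream rose in 7 of 8 cases, against 12.4% of all genes. FAH1, ferulate 5-hydroxylase, on the route to UV-absorbing sinapate esters, had 97.5 and 90.4 FPKM in 3 h hypocotyls, against 0 and 0.0504 FPKM in dark hypocotyls (log2 change 6.53, SE 0.13, adjusted p = 6.1e-19). PAL1, phenylalanine ammonia-lyase, had 497 and 433 FPKM in 3 h hypocotyls, against 131 and 124 FPKM in dark hypocotyls (log2 change 1.86, SE 0.14, adjusted p = 2.46e-10). 4CL3, the coumarate ligase associated with flavonoids, rose more (3.03) than its relatives 4CL1 (1.04) and 4CL2 (0.90, not called).

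The start regions of leading genes were searched for 4 short motifs known from light, clock and growth genes: the G-box (CACGTG), the evening element (AAAATATCT), the telo-box (AAACCCTA) and the I-box (GATAAG), on both strands of the 250 bases before the annotated start (RefSeq, TAIR10.1). Sequences of 4 promoters are shown, chosen from called genes with large changes because they hold a motif, so that their matches are no result. HY5, HYH, SIG5 and FAH1 hold none of the 4 motifs in this window. Motif matches are in capitals, sequences read 5′ to 3′ on the strand of the gene, and position −1 is the base just before the start.
ELIP1 (chr3:8085670-8085919, minus strand; G-box at −66, I-box at −17): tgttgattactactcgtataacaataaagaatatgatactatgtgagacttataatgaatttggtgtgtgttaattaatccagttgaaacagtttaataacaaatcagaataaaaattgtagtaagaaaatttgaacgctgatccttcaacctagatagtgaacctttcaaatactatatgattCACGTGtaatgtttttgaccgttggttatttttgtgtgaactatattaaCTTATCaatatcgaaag
F3H (chr3:19024942-19025191, plus strand; G-box at −249): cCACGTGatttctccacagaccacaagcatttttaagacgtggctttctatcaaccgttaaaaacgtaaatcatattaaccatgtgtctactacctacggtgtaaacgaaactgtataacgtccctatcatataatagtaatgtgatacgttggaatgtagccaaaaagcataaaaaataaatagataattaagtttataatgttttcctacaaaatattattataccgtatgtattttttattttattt
FLS1 (chr5:2803583-2803832, plus strand; evening element at −155): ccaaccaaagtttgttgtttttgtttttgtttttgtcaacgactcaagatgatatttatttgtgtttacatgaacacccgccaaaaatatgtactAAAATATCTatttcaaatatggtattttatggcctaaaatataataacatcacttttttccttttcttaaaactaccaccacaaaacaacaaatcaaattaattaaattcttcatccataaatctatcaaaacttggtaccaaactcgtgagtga
DIN6 (chr3:17441432-17441681, minus strand; I-boxes at −246 and −111, G-box at −167, telo-box at −76): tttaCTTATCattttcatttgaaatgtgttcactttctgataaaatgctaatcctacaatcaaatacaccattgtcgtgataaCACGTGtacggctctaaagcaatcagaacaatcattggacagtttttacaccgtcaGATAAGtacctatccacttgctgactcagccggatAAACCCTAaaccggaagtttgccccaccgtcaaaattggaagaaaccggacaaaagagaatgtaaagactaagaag
A G-box stood in 13.0% of the promoters of genes that rose by 3 or more, in 9.05% of those that fell by 3 or more and in 7.43% of all tested nuclear coding genes. It was held by 5 of 13 flavonoid enzyme genes (CHS, CHIL, F3H, DFR and UF3GT) and by 9 of 23 clock genes. The I-box stood in 10 of the 19 listed starvation genes (52.6%), against 12.6% of tested genes, and in 6 of 17 SAUR genes (35.3%). Among genes that rose or fell by 3 or more its share was 13.0% and 11.9%. The evening element was found in 6 of 23 clock genes (26.1%), against 2.47% of tested genes and 2.86% and 2.47% of those rises and falls. For the telo-box these shares were 1.82% and 2.88%, against 3.57% of tested genes. Every list was searched for all 4 motifs, and only some lists with high shares are given. These are matches of letters in a fixed window and no binding was measured.

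No SAUR or Aux/IAA gene of the lists rose. All 17 listed SAUR genes fell, with a median of −4.68, against falls in 8.82% of all genes. The SAUR list leaves out other SAUR-like genes, such as AT4G13790. Both lists were chosen with earlier results of these data known. SAUR19, of the group that promotes cell expansion through proton pumping, had 3.29 and 4.22 FPKM in 3 h hypocotyls, against 149 and 171 FPKM in dark hypocotyls (log2 change -5.09, SE 0.29, adjusted p = 1.65e-11). SAUR24 had 6.84 and 9.01 FPKM in 3 h hypocotyls, against 272 and 336 FPKM in dark hypocotyls (log2 change -5.10, SE 0.46, adjusted p = 1.05e-07). Neighbouring copies share part of their sequence (18.5% of the 50-nt stretches of SAUR19). The smallest fall was in SAUR14, which had 20.7 and 25.9 FPKM in 3 h hypocotyls, against 50.7 and 59.9 FPKM in dark hypocotyls (log2 change -1.22, SE 0.17, adjusted p = 5.21e-06). SAUR19 averaged 17.6 ± 1.12 FPKM after only 15 min, 28.6 ± 0.8 FPKM at 1 h and 3.76 ± 0.661 FPKM at 3 h (SD, n = 2 each), and all 17 were lower at 3 h than at 1 h (4.31% of all genes were).

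Of 22 listed Aux/IAA genes, which encode repressors that auxin both destroys and induces, 11 fell and none rose. IAA19 had 21.6 and 21.7 FPKM in 3 h hypocotyls, against 567 and 583 FPKM in dark hypocotyls (log2 change -4.67, SE 0.19, adjusted p = 3.18e-14). IAA6 had 0.349 and 0.883 FPKM in 3 h hypocotyls, against 88.2 and 93 FPKM in dark hypocotyls (log2 change -5.84, SE 0.16, adjusted p = 5.79e-17). IAA29 (-3.36), IAA1 (-2.94) and IAA3 (-2.90) followed, while IAA8 (-0.35), IAA9 (-0.58) and IAA12 (0.09) were not called. Auxin synthesis and conjugation genes fell in 6 of 10 cases, while 8.82% of all genes fell. TAA1, which makes indole-3-pyruvate, had 3.91 and 3.89 FPKM in 3 h hypocotyls, against 36.6 and 36.1 FPKM in dark hypocotyls (log2 change -2.93, SE 0.21, adjusted p = 1.94e-10). The flavin monooxygenase genes YUC3 (-2.78) and YUC8 (-1.66) and the conjugating enzyme genes GH3.2 (-3.52), GH3.3 (-2.68) and GH3.5 (-1.36) also fell. Of 12 transport genes 5 fell, among them WAG2, a kinase that acts on PIN proteins (-2.80), and ABCB19, an auxin exporter of the stem (-1.37), while PIN3 (-0.71) and PIN7 (-0.80) were not called.

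Gibberellin genes moved in both directions. GA20OX1, of the late synthesis steps, had 1.38 and 1.88 FPKM in 3 h hypocotyls, against 35.4 and 34.4 FPKM in dark hypocotyls (log2 change -3.78, SE 0.17, adjusted p = 1.2e-13). GA2OX1, which inactivates the hormone, had 106 and 113 FPKM in 3 h hypocotyls, against 1.78 and 1.76 FPKM in dark hypocotyls (log2 change 5.32, SE 0.19, adjusted p = 4.26e-15). GA2OX7, another inactivating enzyme, was listed at 0 in both dark libraries and had 26.4 and 19.5 FPKM in 3 h hypocotyls (log2 change 4.57, SE 0.16, adjusted p = 3.2e-15). The synthesis genes GA3OX1 (-2.29) and GA20OX2 (-1.74) fell, but GA3OX2, which catalyses the same step as GA3OX1, rose to 22 and 25.9 FPKM in 3 h hypocotyls, against 0.276 and 0.185 FPKM in dark hypocotyls (log2 change 4.34, SE 0.16, adjusted p = 6.71e-15). The receptor gene GID1B (2.03) and the inactivating GA2OX2 (2.81) rose, and the DELLA repressor genes GAI (-2.99), RGL1 (-1.26) and RGL3 (-2.30) fell, whereas RGA, also a DELLA gene, did not pass (-0.45). In all, 5 of 21 rose and 6 fell, against rises in 12.4% and falls in 8.82% of all genes.

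Brassinosteroid genes showed 2 rises and 4 falls among 15, against rises in 12.4% and falls in 8.82% of all genes. BAS1 and SOB7, which inactivate the hormone, both fell: SOB7 had 7.38 and 7.56 FPKM in 3 h hypocotyls, against 88.5 and 81.4 FPKM in dark hypocotyls (log2 change -3.34, SE 0.17, adjusted p = 4.95e-13), and the change of BAS1 was -2.86. The receptor gene BRI1 (-1.80) and the transcription factor gene BZR1 (-1.19) were lower, and the synthesis genes BR6OX2 (1.39) and ROT3 (1.24) higher. DWF4 (0.25) and CPD (0.40) were not called. In the ethylene list 6 of 15 fell and none rose. ACS5, an ACC synthase, the enzyme that makes the ethylene precursor, had 1.69 and 2.42 FPKM in 3 h hypocotyls, against 48.3 and 47.8 FPKM in dark hypocotyls (log2 change -4.02, SE 0.16, adjusted p = 1.38e-14). ACO4, which turns the precursor into ethylene, fell (-1.85), as did ACS6 (-1.04) and the receptor genes ETR2 (-1.45), ERS1 (-1.08) and ERS2 (-1.04). EIN2 (-0.50) and EIN3 (-0.34), which transmit the signal, were not called.

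Among wall genes of elongation more fell than rose, while 12.4% of all genes rose and 8.82% fell. Of 12 alpha-expansin genes, whose proteins loosen walls, 6 fell and 2 rose. EXPA8 had 17.9 and 18.5 FPKM in 3 h hypocotyls, against 439 and 482 FPKM in dark hypocotyls (log2 change -4.59, SE 0.22, adjusted p = 1.04e-12). EXPA11 had 22.2 and 15.7 FPKM in 3 h hypocotyls, against 389 and 411 FPKM in dark hypocotyls (log2 change -4.35, SE 0.23, adjusted p = 1.02e-11). EXPA10 (2.26) and EXPA15 (1.42) were the 2 that rose. XTH genes, which encode enzymes that cut and rejoin xyloglucan, fell in 10 of 19 cases and rose in 4. XTH19 had 9.64 and 5.98 FPKM in 3 h hypocotyls, against 374 and 396 FPKM in dark hypocotyls (log2 change -5.48, SE 0.39, adjusted p = 2.5e-09). XTH33 had 0.707 and 0.799 FPKM in 3 h hypocotyls, against 61.2 and 60.2 FPKM in dark hypocotyls (log2 change -5.14, SE 0.26, adjusted p = 1.36e-12). Both light libraries were below both dark libraries for these 4 genes, picked for large falls, as they were in 36.4% of all genes.

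The opposite pattern was seen in a pair of XTH genes. XTH31 had 965 and 730 FPKM in 3 h hypocotyls, against 20.5 and 24.5 FPKM in dark hypocotyls (log2 change 5.17, SE 0.18, adjusted p = 4.51e-15). XTH32 had 450 and 298 FPKM in 3 h hypocotyls, against 1.63 and 2.52 FPKM in dark hypocotyls (log2 change 6.92, SE 0.23, adjusted p = 5.47e-15). XTH31 had still been at 23.2 and 31.5 FPKM in 1 h hypocotyls, and the difference of 3 h minus 1 h was 4.91 (SE 0.18, adjusted p = 2.17e-13 in limma). XTH7 (2.09) and XTH9 (1.17) rose as well, while XTH4, the most abundant XTH gene in darkness, fell, with 1900 and 1460 FPKM in 3 h hypocotyls, against 4020 and 3910 FPKM in dark hypocotyls (log2 change -1.25, SE 0.19, adjusted p = 1.6e-05). Of 12 cellulose synthesis genes 2 rose and none fell, against rises in 12.4% of all genes. The primary-wall synthases CESA2 (2.14) and CESA5 (1.97) rose. CESA1 (0.79), CESA3 (0.85) and CESA6 (0.18) were not called, and neither were the xylem synthases CESA4 (-0.06), CESA7 (0.34) and CESA8 (0.39). FLA9, of the fasciclin-like arabinogalactan proteins, had 216 and 249 FPKM in 3 h hypocotyls, against 2790 and 2660 FPKM in dark hypocotyls (log2 change -3.55, SE 0.20, adjusted p = 1.05e-11), and FLA1 (-1.61) was the other of 8 that fell.

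Among genes for microtubules and water channels, both abundant in elongating cells, none rose. Tubulin genes fell in 11 of 15 cases, with a median of −1.13 and the 4 others between -0.99 and -0.62. TUB1 had 55.1 and 57.1 FPKM in 3 h hypocotyls, against 336 and 302 FPKM in dark hypocotyls (log2 change -2.48, SE 0.21, adjusted p = 5.54e-09). TUA6 had 516 and 511 FPKM in 3 h hypocotyls, against 1120 and 1000 FPKM in dark hypocotyls (log2 change -1.04, SE 0.10, adjusted p = 1.11e-08). Tubulin copies share sequence (30.9% of the 50-nt stretches of TUB1). Of 18 aquaporin genes 6 fell and none rose, against falls in 8.82% of all genes. TIP2;1, of the vacuolar membrane, had 1030 and 974 FPKM in 3 h hypocotyls, against 4810 and 4630 FPKM in dark hypocotyls (log2 change -2.23, SE 0.22, adjusted p = 3.57e-08). PIP2;4, of the plasma membrane, had 208 and 197 FPKM in 3 h hypocotyls, against 1100 and 934 FPKM in dark hypocotyls (log2 change -2.32, SE 0.13, adjusted p = 2.55e-12). TIP1;2, the most abundant of the list, had 7130 and 7120 FPKM in 3 h hypocotyls and 9590 and 9220 FPKM in dark hypocotyls and was not called (-0.40). PIP2;7 (-2.01), PIP1;3 (-1.71), PIP1;5 (-1.27) and PIP1;4 (-1.04) make up the rest of the falls.

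Most genes induced by darkness and sugar starvation were lower at 3 h than in darkness, and most were higher at 6 h than at 3 h. Of 18 tested, 13 fell and 1 rose against darkness, with a median of −2.15 (8.82% and 12.4% of all genes did). At 6 h 14 were higher than at 3 h (2.64% of all genes were). DIN10, a raffinose synthase family gene, had 49.4 and 52.9 FPKM in 3 h hypocotyls, against 719 and 639 FPKM in dark hypocotyls (log2 change -3.70, SE 0.19, adjusted p = 1.94e-12). Its 6 h libraries had 391 and 455 FPKM, a difference of 3.02 from 3 h (SE 0.19, adjusted p = 9.93e-10 in limma). PRODH1, proline dehydrogenase, had 36.4 and 39.6 FPKM in 3 h hypocotyls, against 367 and 348 FPKM in dark hypocotyls (log2 change -3.20, SE 0.21, adjusted p = 7.3e-11). The 6 h libraries of PRODH1 had 187 and 218 FPKM (2.38 from 3 h). DIN6 had 5.56 and 9.02 FPKM in 6 h hypocotyls (1.79 from 3 h), still far below its level in dark hypocotyls. Genes of branched-chain amino acid breakdown, BCAT2 (-2.62), DIN3 (-2.53), DIN4 (-1.65) and MCCA (-2.38), were in the group that fell. DRM1 (-2.35) and DRM2 (-1.94), dormancy-associated genes, fell at high levels: DRM2 had 327 and 352 FPKM in 3 h hypocotyls, against 1360 and 1250 FPKM in dark hypocotyls. The riser was DIN9, a phosphomannose isomerase gene (2.24).

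Nitrogen assimilation genes rose in 6 of 8 cases. GLU1, the ferredoxin-dependent glutamate synthase of plastids, had 111 and 100 FPKM in 3 h hypocotyls, against 0.55 and 1.22 FPKM in dark hypocotyls (log2 change 5.84, SE 0.22, adjusted p = 1.92e-14). ASN2, an asparagine synthetase whose regulation by light runs opposite to that of DIN6, had 77.9 and 55.3 FPKM in 3 h hypocotyls, against 3.35 and 3.41 FPKM in dark hypocotyls (log2 change 3.93, SE 0.15, adjusted p = 9.47e-15). The nitrate reductase genes NIA1 (2.76) and NIA2 (3.11) rose, as did NIR1 (1.6) and GLN2 (1.71), and the nitrate transporter gene NRT1.1 (-0.68) was not called. Among genes for the use of stored oil 2 of 18 rose and none fell, against rises in 12.4% and falls in 8.82% of all genes. ICL, isocitrate lyase of the glyoxylate cycle, had 33.7 and 42 FPKM in 3 h hypocotyls and 63.6 and 70.3 FPKM in dark hypocotyls (-0.81, not called). The peroxisomal genes PMDH2 (3.43), a malate dehydrogenase, and ACX1 (1.04), an acyl-CoA oxidase, were the 2 that rose.

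Ribosome assembly and cell division showed almost no calls, against 21.2% of all genes called. Of 19 nucleolar genes 1 rose (AT3G15460, 1.22) and none fell, with a median of 0.01. FIB2, a fibrillarin of the nucleolus, had 8.09 and 8.15 FPKM in 3 h hypocotyls and 8.19 and 8.52 FPKM in dark hypocotyls (log2 change -0.04, SE 0.15). Of 11 replication genes 1 rose (RNR2A, a ribonucleotide reductase subunit, 1.28), and of 13 mitotic genes 1 fell (CYCA2;3, -1.06). CYCA2;3 was at −0.99, short of the threshold, without 3 h replicate B and without dark replicate A. MCM2, a helicase subunit of replication, was at 4.16 and 4.48 FPKM in 3 h hypocotyls and 5.52 and 4.21 FPKM in dark hypocotyls.

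Stress lists gave mixed results, beside rises in 12.4% and falls in 8.82% of all genes. RD29A, a gene of drought and cold, had 232 and 214 FPKM in 3 h hypocotyls, against 6.89 and 10.2 FPKM in dark hypocotyls (log2 change 4.57, SE 0.22, adjusted p = 6.67e-13). KIN2, of the same kind, had 291 and 260 FPKM in 3 h hypocotyls, against 0.879 and 0 FPKM in dark hypocotyls (log2 change 7.65, SE 0.36, adjusted p = 2.06e-11). COR15A, another cold gene, was listed at 0 in all 4 libraries but for 0.12 FPKM in 3 h replicate B. Of 8 heat and peroxide genes 4 rose: HSP70 (2.92), HSP18.2 (2.04), HSFA2 (1.72) and HSP90.1 (1.31). Among 9 genes of touch and rapid stress, DREB2A (2.55) and ZAT12 (2.32) rose, and WRKY40 (-1.81), TCH3 (-1.76) and ERF6 (-1.54) fell. Wax genes fell in 3 of 6 cases, CER4 (-3.06), WSD1 (-1.61) and KCS1 (-1.06), and CER3 rose (1.11). KCS1 was at −0.92 without 3 h replicate B and CER3 at 0.95 without 3 h replicate A, both short of the threshold.

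Markers of other cell types were compared next. The 10 endodermis genes, among them CASP1 to CASP5 of the Casparian strip, summed to 3260 and 2950 FPKM in 3 h hypocotyls, against 3100 and 3260 FPKM in dark hypocotyls, and none was called. The 10 vascular genes summed to 375 and 261 FPKM in 3 h hypocotyls, against 274 and 249 FPKM in dark hypocotyls, with none called. Over all genes 21.2% were called, so that a lack of calls among 10 genes shows little about tissue make-up. Root genes summed to at most 0.239 FPKM and seed storage genes to at most 3.13 FPKM in the 4 libraries. The 8 stomatal genes summed to 4.2 and 4.52 FPKM in 3 h hypocotyls, against 2.1 and 2.12 FPKM in dark hypocotyls, with none of 8 called. With 0.1 FPKM added before the logarithm, 4 of the 8 stomatal genes and 4 of the 7 shoot apex genes tested were called higher, with list medians of 0.88 and 1.16 in place of 0.23 and 0.42. Shoot apex markers summed to 55.6 and 60.2 FPKM in 3 h hypocotyls, against 27 and 27.9 FPKM in dark hypocotyls. Most of that sum was AS1, with 45.4 and 49.3 FPKM in 3 h hypocotyls, against 20.9 and 21.3 FPKM in dark hypocotyls, the only called gene of the 7 tested (1.13). Changes of the 7 ran from 0.09 to 1.13, so that none was lower in light. Of the 11 shoot apex genes 6 were under 1 FPKM in all 4 libraries, among them CLV3 and WUS, at 0 in each. The 4 epidermis genes summed to 985 and 911 FPKM in 3 h hypocotyls, against 1690 and 1520 FPKM in dark hypocotyls, and PDF1 (-0.99) was closest to a call. The part of these shifts in the results above was not tested.

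The 3 h state was next set against the hypocotyl libraries of 1 h and 6 h, which share no library with the comparison of light and darkness other than those of 3 h. At 3 h 2156 genes differed from 1 h (11.5%), 1351 higher (7.23%) and 805 lower (4.31%). At 6 h 1156 genes differed from 3 h (6.19%), 493 higher (2.64%) and 663 lower (3.55%). The increase from 1 h to 3 h took in 18 of 20 light-harvesting genes, 26 of 28 photosystem genes and 22 of 23 Calvin cycle genes, while 3, 1 and 7 genes of these lists were higher at 6 h than at 3 h. RBCS1A was higher at 6 h, with 3820 and 3970 FPKM in 6 h hypocotyls, against 1280 and 1400 FPKM in 3 h hypocotyls (1.54, adjusted p = 2.48e-07 in limma). HY5 had 353 and 363 FPKM in 1 h hypocotyls, 249 and 253 FPKM in 3 h hypocotyls and 105 and 112 FPKM in 6 h hypocotyls, a fall called for 6 h against 3 h (-1.21) and not for 3 h against 1 h (-0.51). Of the 15 repressors 1 rose and 1 fell between 1 h and 3 h.

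FAH1 had the largest increase over 1 h after DIR1 among the genes named, with 97.5 and 90.4 FPKM in 3 h hypocotyls, against 0.945 and 1.09 FPKM in 1 h hypocotyls (5.56, adjusted p = 8.53e-17 in limma). AT2G40435, annotated as similar to the bHLH factor SCREAM, had 41.6 and 33.9 FPKM in 3 h hypocotyls, against 0.0655 and 0 FPKM in 1 h hypocotyls (5.22, adjusted p = 3.52e-15 in limma). At 6 h it was at 1.33 and 1.19 FPKM (-4.09 from 3 h), and it was listed at 0 in both dark libraries. AT3G29633, uncharacterised, was listed at 29.6 and 31.2 FPKM in 3 h hypocotyls and at 0 in the hypocotyl libraries of darkness, 1 h and 6 h, with an SE of 0.94 on the log2 scale. The largest falls from 1 h to 3 h were in RTFL13 (-4.45), P1R3 (-4.35), XTH19 (-4.09), PAR2 (-4.01) and AT1G70270 (-3.91). From 3 h to 6 h AT1G29025, annotated as an EF-hand calcium-binding protein, dropped to 2.47 and 2.16 FPKM in 6 h hypocotyls, against 111 and 79.1 FPKM in 3 h hypocotyls (-4.83), after a level at 3 h that did not pass the test against darkness (-0.43). MSRB9, a methionine sulfoxide reductase, had 1870 and 1680 FPKM in dark hypocotyls, 1170 and 1180 FPKM at 1 h, 100 and 98.7 FPKM at 3 h and 5.36 and 4.96 FPKM at 6 h, with -3.55 for 3 h minus 1 h and -4.03 for 6 h minus 3 h. It thus ran opposite to MSRB6, which was higher at 3 h than in darkness.

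**Figure D4:**
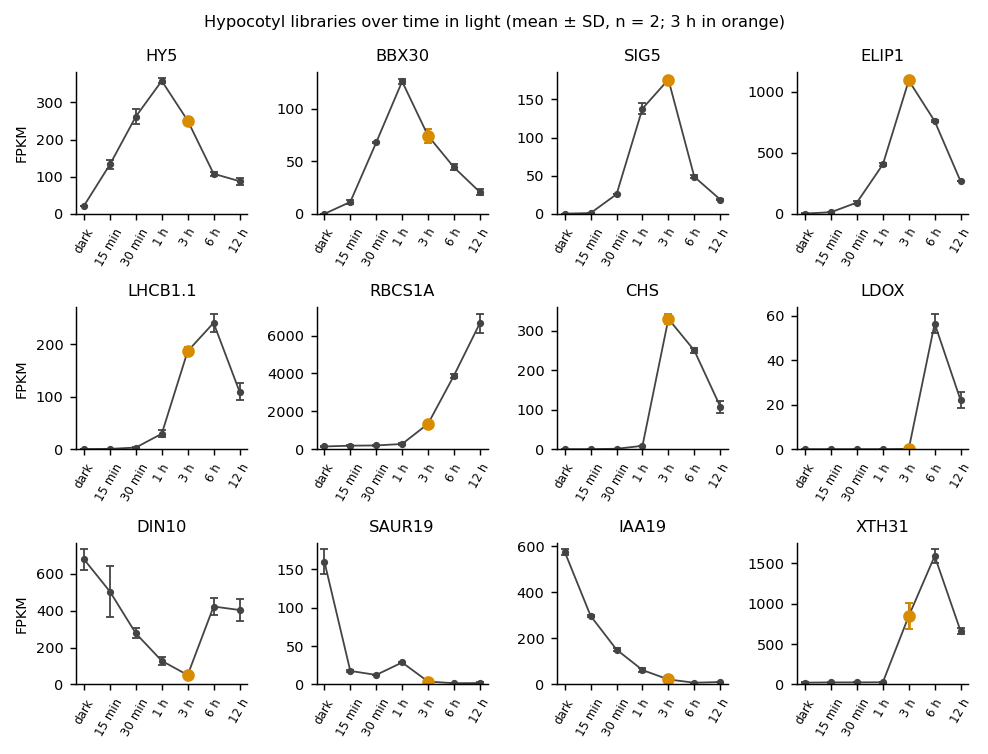
Mean FPKM ± SD (n = 2 libraries) of 12 genes in hypocotyls from darkness to 12 h of light, on linear axes from 0, with 3 h in orange. HY5 and BBX30 peak at 1 h, SIG5, ELIP1 and CHS at 3 h, LHCB1.1, LDOX and XTH31 at 6 h and RBCS1A at 12 h, and DIN10 has its lowest value, 51.2 ± 2.47 FPKM, at 3 h.

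The change of hypocotyls at 3 h was compared with that of cotyledons with apex through the difference of the 2 changes, hypocotyls minus cotyledons, whose dark libraries are separate. It was called in 5419 genes (29.0%), 2899 with a higher change in hypocotyls (15.5%) and 2520 with a lower one (13.5%), and the median was 0.06. All 17 listed SAUR genes had a lower change in hypocotyls, with a median difference of −5.64. SAUR16 had 4.52 and 6.48 FPKM in 3 h hypocotyls, against 142 and 152 FPKM in dark hypocotyls, and 51.2 and 53.7 FPKM in 3 h cotyledons, against 2.17 and 1.66 FPKM in dark cotyledons (difference -8.72, SE 0.33, adjusted p = 2.37e-13 in limma). SAUR50 likewise fell in hypocotyls (-4.05) and had a change of 3.05 in cotyledons (difference -7.09). Among XTH genes 13 of 19 had a lower and 3 a higher change in hypocotyls. XTH31 was the gene with the highest difference among those named, 6.22 (SE 0.26, adjusted p = 3.43e-13 in limma), with 66.7 and 72.3 FPKM in 3 h cotyledons, against 155 and 135 FPKM in dark cotyledons.

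Most photosystem and Calvin cycle genes and 12 of 20 light-harvesting genes had a higher change in hypocotyls, and 2 light-harvesting genes had a lower one. The 28 photosystem genes summed to 9150 and 9210 FPKM in 3 h hypocotyls, against 930 and 1010 FPKM in dark hypocotyls, and to 59200 and 52800 FPKM in 3 h cotyledons, against 16800 and 17800 FPKM in dark cotyledons. The difference was called higher in 22 of 28 photosystem genes and 17 of 23 Calvin cycle genes, with medians of 1.48 and 2.04. It was called lower in 1 of each. Over all genes it was called higher in 15.5% and lower in 13.5%. PSBR had 831 and 821 FPKM in 3 h hypocotyls, against 24.8 and 35 FPKM in dark hypocotyls, and 3200 and 3110 FPKM in 3 h cotyledons, against 1400 and 1430 FPKM in dark cotyledons (difference 3.61, adjusted p = 5.22e-12 in limma). LHCB1.1 had 3100 and 2500 FPKM in 3 h cotyledons, against 9.45 and 11 FPKM in dark cotyledons. The difference in its change was not called (-0.66, adjusted p = 0.108 in limma). The dark hypocotyl libraries of LHCB1.1 were at 0 and 0.419 FPKM, where the added 1 FPKM lowers the hypocotyl change and so this difference. Nucleolar genes (10 of 19) and replication genes (8 of 11) had lower changes in hypocotyls and none had a higher one, with medians of −1.10 and −1.29. FIB2 had 58.2 and 44.5 FPKM in 3 h cotyledons, against 14 and 17 FPKM in dark cotyledons, and its values in hypocotyls are given above (difference -1.70, adjusted p = 8.69e-07 in limma). Lipid reserve genes had a higher change in hypocotyls in 11 of 18 cases: ICL had 241 and 208 FPKM in 3 h cotyledons, against 3470 and 4240 FPKM in dark cotyledons (difference 3.28, adjusted p = 3.08e-09 in limma). In the hook gene HLS1 hypocotyls were low in both states, with 0.133 and 0.196 FPKM in 3 h hypocotyls and 0.259 and 0.694 FPKM in dark hypocotyls, while cotyledons with apex had 1.62 and 1.66 FPKM after 3 h of light, against 31.5 and 33.6 FPKM in darkness.

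**Figure D5:**
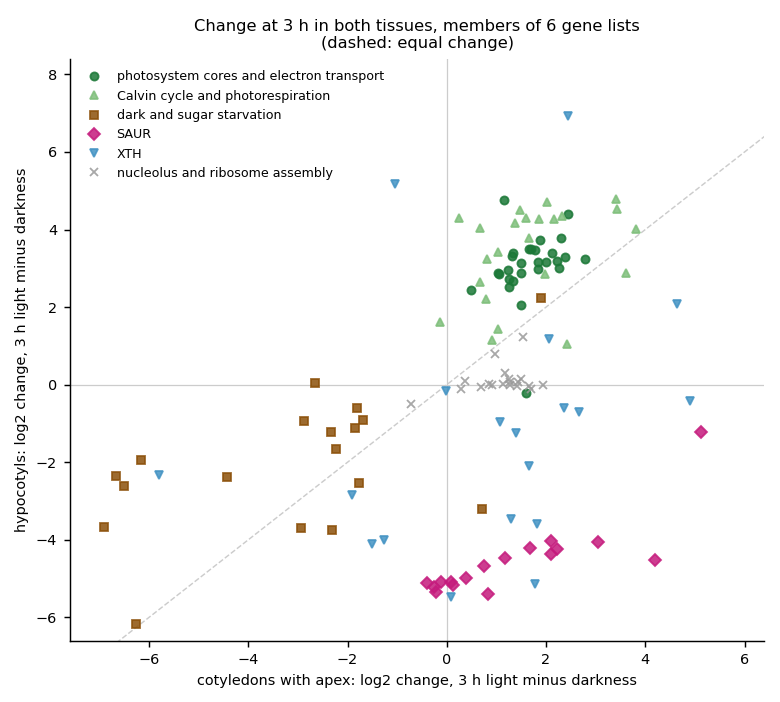
Log2 change at 3 h of light in hypocotyls (vertical) and in cotyledons with apex (horizontal) for tested members of 6 gene lists; the dashed line marks equal change. SAUR genes lie in the lower part with falls in hypocotyls (median −4.68), and photosystem and Calvin cycle genes lie mostly above the line.

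The authors' deposited table of Cuffdiff results called 3766 genes by the same thresholds, 2195 higher and 1571 lower in light. Of the 3955 limma calls, 3600 were of genes that the authors' deposited table lists, and 94.9% of these 3600 were also called there, and 90.7% of the calls of that table were called by limma. All 3415 genes called in both had the same sign. For 95 of the genes tested, the authors' deposited table gives an infinite log2 ratio or a spreadsheet error in its place, and 0 of these passed its q-value. Of the list members and named genes, 15 were called by limma and not by the authors' deposited table, and 3 (GA20OX2, WRKY40 and ERF6) could not be compared. CHS (q = 0.227), FLS1 (q = 0.309), FAH1 (q = 0.3), MYB12 (q = 0.3), GSTF12 (q = 0.362), BBX25 (q = 0.364), BBX32 (q = 0.362), AT1G48100 (q = 0.0525) and AT3G15460 (q = 0.51) were higher in light in the authors' deposited table without passing. AT3G29633 has an infinite ratio in the authors' deposited table (q = 1). RTFL21 (q = 0.186), AT4G13790 (q = 0.341), SAUR68 (q = 0.341), AT5G39240 (q = 0.106) and GH3.2 (q = 0.101) were lower in light in the authors' deposited table without passing.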

How the data were processed

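Poly(A) RNA of 28 libraries was measured by RNA-seq. The authors aligned reads with TopHat2 2.0.8 to TAIR10 and made the deposited FPKM with Cuffnorm, and the deposited log2 ratios and q-values with Cuffdiff 2.1.1, per the submitters' processing notes. The sources used here do not give the strand setting of the counting or the scaling of libraries by Cuffnorm. Differences were fitted with limma 3.58.1 (R 4.3.3; lmFit, and eBayes with trend and robust settings) on log2(FPKM + 1), computed from the deposited FPKM, over 14 group means of all 28 libraries, for 18678 of 33557 genes whose mean over the libraries reached 1 FPKM. P-values were adjusted by Benjamini-Hochberg within each comparison. A count test was not run on FPKM.

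Depth was read from the steps between low values: 81.8% of 20759 values of 2 to 5 reads were within 0.1 of a whole read, against the 20.0% that evenly spread values would give. No pair of libraries held identical values. In simulated data for 18713 genes, 59 of 61 genes changed by 1.5, 68 of 69 changed by 2 and 69 of 70 changed by 3 (log2) were called, and 0 unchanged genes. The changed genes were drawn only from genes clearly expressed in dark hypocotyls, with noise drawn independently for each library. The simulation thus cannot tell how reliably genes near 0 FPKM in darkness, such as CHS, are called.

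The members and gene lists were chosen with earlier results of these data known. Genes were named by a rule: the 14 largest called changes in each direction, 5 in each direction for the other comparisons, up to 4 called members per list, and 16 genes set by name. Other called members were named after their values were seen, to show the range of a list. Labels call A and B biological replicates and do not say that a letter pairs samples across groups. Alternatives were a pseudocount of 0.1 FPKM, no filter, a filter at a mean of 5 FPKM, quantile normalization, a fit on the libraries of a comparison alone, a replicate block, leaving out each library, and the authors' Cuffdiff values. Exon overlap came from the RefSeq annotation of TAIR10.1, which matched 32810 genes, and 747 were not matched.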

Additional observations from a re-analysis of the deposited data

Results flagged for a closer look

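The 10 genes with the most extreme differences between the changes of the 2 tissues at 3 h were set apart by a limma test of that difference (hypocotyls minus cotyledons with apex). On the higher side XTH31 (6.22) had 965 and 730 FPKM in 3 h hypocotyls, against 20.5 and 24.5 FPKM in dark hypocotyls, and 66.7 and 72.3 FPKM in 3 h cotyledons, against 155 and 135 FPKM in dark cotyledons. AT4G16750 (6.11), annotated as a DNA-binding protein, had 121 and 126 FPKM in 3 h hypocotyls, against 2.75 and 4.59 FPKM in dark hypocotyls, and 1.62 and 3.71 FPKM in 3 h cotyledons, against 9 and 6.89 FPKM in dark cotyledons. BBX23 (6.08), a B-box gene, had 0.156 and 0.278 FPKM in 3 h cotyledons, against 86.8 and 120 FPKM in dark cotyledons, and at most 0.576 FPKM in the 4 hypocotyl libraries. AT3G15534 (5.73) had 4.15 and 5.84 FPKM in 3 h hypocotyls, against 0 and 0 FPKM in dark hypocotyls, and 0 and 0 FPKM in 3 h cotyledons, against 10.1 and 6.21 FPKM in dark cotyledons. KIN2 (5.65) was higher in light in both tissues, with 190 and 287 FPKM in 3 h cotyledons, against 57.9 and 57.4 FPKM in dark cotyledons.

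On the lower side RTFL13 (−11.10) was listed at 0 in 3 h hypocotyls and had 8.46 and 0 FPKM in 3 h cotyledons, against 0 and 0 FPKM in dark cotyledons. SAUR16 (−8.72), AT2G21210 (−8.35) and AT2G21200 (−7.30) are SAUR genes that were lower in light in hypocotyls and higher in light in cotyledons. AT2G21210 had 6.86 and 5.29 FPKM in 3 h hypocotyls, against 88.3 and 103 FPKM in dark hypocotyls, and 160 and 126 FPKM in 3 h cotyledons, against 3.38 and 7.3 FPKM in dark cotyledons. AT2G21200 had 4.62 and 6.28 FPKM in 3 h cotyledons, against 0.601 and 0 FPKM in dark cotyledons. RTFL18 (−7.95) was listed at 0 in 3 h hypocotyls, against 65 and 21.8 FPKM in dark hypocotyls, with 39.5 and 0 FPKM in 3 h cotyledons, against 0 and 0 FPKM in dark cotyledons, and its adjusted p was 0.0708 in a limma fit of these libraries alone. No cause was tested for any of these differences.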

How the results depend on the processing

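All 67 alternative values of the 6 counts of called genes stayed within 1.5 times the main count. For 3 h against darkness they ran between 3346 (mean of at least 5 FPKM) and 4559 (pseudocount of 0.1 FPKM), and between 3916 and 4002 with 1 library left out. Leaving out 1 library gave 2262 to 2358 genes higher and 1635 to 1675 lower, 5358 to 5570 for the tissue difference, 2086 to 2201 for 3 h against 1 h and 1085 to 1244 for 6 h against 3 h. Quantile normalization gave 2063 higher and 1870 lower. With A and B as a replicate block the counts were 3957, 5413, 2153 and 1154. Same-letter libraries of 3 h and darkness had deviations correlated at 0.12, those of 6 h and 3 h at −0.093 and those of 3 h and 1 h at −0.0167.

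Of 2298 alternative values for named genes, 2275 kept their direction and call, 20 lost the call, 3 gained it and 0 reversed. With the authors' Cuffdiff q-values 14 genes with a finite ratio lost it, most of them near 0 FPKM in 1 group, among them CHS, FLS1, FAH1, BBX25, BBX32 and MYB12. With a pseudocount of 0.1 FPKM the flavonoid list had 11 rises in place of 8. The flavonoid regulators had 5 rises in place of 3 with that pseudocount and 1 with a mean of at least 5 FPKM, where fewer genes were tested. That filter left 3 falls in place of 6 among gibberellin genes and 1 in place of 3 among genes of touch and rapid stress. The cause was not tested. Depth limits genes near 1 FPKM, and 2 libraries per group limit each SE.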
